A study of Mus musculus with 48 samples.

Results

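The transcription factors Snai1, Snai2, Zeb1, Zeb2, Twist1, Twist2 and Prrx1, 7 of the 24264 transcript rows in the count table, were followed through reprogramming of mouse embryonic fibroblasts (MEFs) to induced pluripotent stem cells (iPSCs). Their rows were found by gene symbol, the set having been chosen with earlier results of these data known, each had 1 row, and all 7 passed the low-count filter. The table held 48 libraries from 20 conditions, made by a 5′-end RNA-sequencing method (STRT) from sorted or cultured cells. WT MEFs were compared with MKOS MEFs and OKMS MEFs, which carry a doxycycline-inducible polycistronic cassette encoding c-Myc, Klf4, Oct4 and Sox2 in the order of its letters, together with a CAG promoter-driven rtTA, in an intron of Sp3, and a Nanog-GFP reporter.

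Tg MEFs came from chimeric embryos made with the TNG MKOS or TNG OKMS ESC line, so each cassette was represented by 1 targeted line, and they were reprogrammed as a small minority among WT MEFs with doxycycline and vitamin C. The OKMS cassette encodes a shorter Klf4 than the MKOS cassette, so that factor order and Klf4 form cannot be told apart in these libraries. Outside them, the study put the longer Klf4 into the OKMS order. It reported surface marker and Nanog-GFP changes similar to those with MKOS. Nanog-GFP- cells were sorted from the CD44low ICAM1low gate (2NG-) and the CD44low ICAM1high gate (3NG-), and Nanog-GFP+ cells from the latter (3NG+). For OKMS these were E-CAD+ (3 conditions) or E-CAD- (2NG- and 3NG-), and for MKOS they were E-CAD+, each with 3 libraries. The series' design text places sorting at day 10, whereas the sample protocol also mentions a later day. Established MKOS and OKMS iPSCs kept without doxycycline (-dox) or in 2i medium, the D6 iPSC line (D6s4B5, from a single transposon integration of MKOS), and ESCs of the TNG OKMS, TNG MKOS, parental TNG and E14 lines had 2 libraries each, as had each kind of MEF. Libraries held 1429717 to 14174725 transcript reads with a median of 6243254.5. The labels do not say whether replicates were separate cultures, so p-values measure the spread between these samples only.

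Snai1 and Snai2 (zinc finger proteins of the Snail family), Zeb1 and Zeb2 (zinc finger and homeodomain proteins) and Twist1 and Twist2 (basic helix-loop-helix proteins) are known for their part in epithelial-to-mesenchymal transition. Prrx1 is a paired-type homeodomain protein of limb and craniofacial mesenchyme. Snail and Zeb proteins repress epithelial genes, with E-cadherin (Cdh1) the classical target, by binding E-boxes of the sequence CACCTG, and Twist proteins bind E-boxes as dimers with the E proteins Tcf3, Tcf4 and Tcf12. Loss of these factors and gain of E-CAD accompany the reverse passage, mesenchymal-to-epithelial transition (MET), which fibroblasts undergo early in reprogramming.

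In GRCm38 coordinates from the RefSeq annotation, Snai1 lies at chr2:167538195-167542814 (forward strand) and Snai2 at chr16:14705852-14709395 (forward). Zeb2 is at chr2:44983512-45117442 (reverse), Twist1 at chr12:33957671-33959831 (forward), Twist2 at chr1:91801461-91848034 (forward) and Prrx1 at chr1:163245119-163315145 (reverse).

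The E-box was looked for in the 250 bases before annotated start sites (RefSeq, GRCm38.p6) because the Snail and Zeb proteins bind it. CACCTG or, on the other strand, CAGGTG was found before 1 of the 5 members that had an entry (Snai1) and before 12 of 17 genes of a list of 26 epithelial genes. Over all symbols with an entry the share was 19.4% (5252 of 27025). Snai2, Zeb1 and Cdh1 had no entry in the promoter set searched, so their promoters were not examined. The member with a match is shown with the 4 epithelial genes other than Cdh1 that gave the smallest adjusted p between E-CAD+ and E-CAD- cells, E-boxes in capitals, 5′ to 3′ on the gene's strand. A match is a description of the letters and not evidence of binding.
Snai1 promoter (chr2:167537945-167538194, forward strand): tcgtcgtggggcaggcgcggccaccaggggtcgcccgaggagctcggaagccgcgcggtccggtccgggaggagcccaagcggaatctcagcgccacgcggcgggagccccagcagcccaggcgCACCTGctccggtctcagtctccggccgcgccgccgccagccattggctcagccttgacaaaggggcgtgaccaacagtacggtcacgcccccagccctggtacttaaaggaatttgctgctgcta
Epcam promoter (chr17:87635729-87635978, forward strand): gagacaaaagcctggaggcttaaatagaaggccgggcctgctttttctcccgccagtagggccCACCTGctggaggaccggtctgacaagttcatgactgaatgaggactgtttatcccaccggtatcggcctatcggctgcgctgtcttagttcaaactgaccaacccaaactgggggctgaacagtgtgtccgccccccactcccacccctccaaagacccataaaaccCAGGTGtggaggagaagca
Krt18 promoter (chr15:102027966-102028215, forward strand): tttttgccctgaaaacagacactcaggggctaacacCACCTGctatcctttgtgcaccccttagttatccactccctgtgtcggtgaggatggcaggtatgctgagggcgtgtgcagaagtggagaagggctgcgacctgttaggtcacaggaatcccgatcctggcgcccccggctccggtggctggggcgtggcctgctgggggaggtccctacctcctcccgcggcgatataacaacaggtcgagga
Cldn6 promoter (chr17:23679115-23679364, forward strand): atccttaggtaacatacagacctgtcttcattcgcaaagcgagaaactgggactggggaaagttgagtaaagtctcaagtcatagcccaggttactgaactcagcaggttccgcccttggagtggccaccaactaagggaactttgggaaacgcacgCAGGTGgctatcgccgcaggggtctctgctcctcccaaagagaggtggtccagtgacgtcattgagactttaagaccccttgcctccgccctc
Ap1m2 promoter (chr9:21312334-21312583, reverse strand): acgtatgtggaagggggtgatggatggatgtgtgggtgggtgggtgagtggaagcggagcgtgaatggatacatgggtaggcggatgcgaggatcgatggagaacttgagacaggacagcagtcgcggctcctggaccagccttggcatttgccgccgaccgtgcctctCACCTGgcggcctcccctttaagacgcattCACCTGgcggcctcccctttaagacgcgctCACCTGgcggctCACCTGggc
Snai1 had 1 E-box, 126 bases before its start site, whereas Ap1m2, which encodes a clathrin adaptor subunit of epithelial cells, had 4. Epcam, an epithelial adhesion molecule, had 2, at 187 and 19 bases before the start. Krt18 (a simple-epithelium keratin) and Cldn6 (a tight junction claudin) had 1 each, at 214 and 93 bases.

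All 7 factors had their 3 highest condition means in the 3 kinds of MEFs. Levels are given as CPM, the reads of a gene scaled to the same total of transcript reads in each library. The 5′-end counts were taken as independent of transcript length. Genes were compared by the share of their own MEF level, except for Zeb1 and Zeb2, whose reads were also set against each other. In bulk samples, fewer cells expressing a gene and less RNA per cell cannot be told apart.

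Snai1 differed between the kinds of MEFs in each library. Snai1 was at 44.6 and 20.1 CPM in the 2 WT MEF libraries, 95.3 and 114 CPM in MKOS MEFs and 128 and 223 CPM in OKMS MEFs. All 4 Tg MEF libraries were above both WT MEF libraries, a 4.09-fold difference in Snai1 (log2 2.03 ± 0.66 SE) that did not pass adjustment over all genes (edgeR adjusted p = 0.201, unadjusted p = 0.00369). No member was called between Tg and WT MEFs, where 0.717% of all 15630 genes tested were called, and Snai1 was called when these 6 libraries were compared alone (edgeR adjusted p = 1.62e-05) or without the low-count filter (0.00673). Some marker sums of other cells also separated WT from Tg MEFs. Summed myeloid markers (mostly Lyz2) were at 217 to 232 CPM in WT, 14.6 to 16.7 CPM in MKOS and 108 to 120 CPM in OKMS MEFs. Neural sums were at 52.1 to 54.2, 29.0 to 29.9 and 39.2 to 44.2 CPM, and muscle sums at 7.67 to 11.3, 14.1 to 19.7 and 20.4 to 23.5 CPM. The part of such cells in the Snai1 difference was not tested. The sorted cells started from Tg MEFs diluted in WT MEFs. Each cassette was compared with its own MEFs, in which Snai1 was higher than in WT MEFs. No comparison of sorted cells with WT MEFs was set, so the Snai1 shares and folds below depend on that reference.

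Prrx1 had 253 and 172 CPM in WT MEFs, 195 and 281 CPM in MKOS MEFs, and 157 and 295 CPM in OKMS MEFs. Its 3 kinds of MEFs overlapped, in contrast to Snai1. Zeb1 was at 30.3 to 50.5 CPM and Zeb2 at 19.4 to 38.7 CPM across the 6 MEF libraries, without separation by genotype.

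Snai2 was lower in MKOS MEFs (21.7 and 19.5 CPM) than in WT MEFs (36.8 and 45.3 CPM) and OKMS MEFs (36.0 and 54.6 CPM), a difference for which no test was set. Twist1 was at 24.7 to 54.1 CPM and Twist2 at 17.2 to 54.3 CPM over the MEF libraries. Neither Twist gene separated WT from Tg MEFs.

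**Figure D1:**
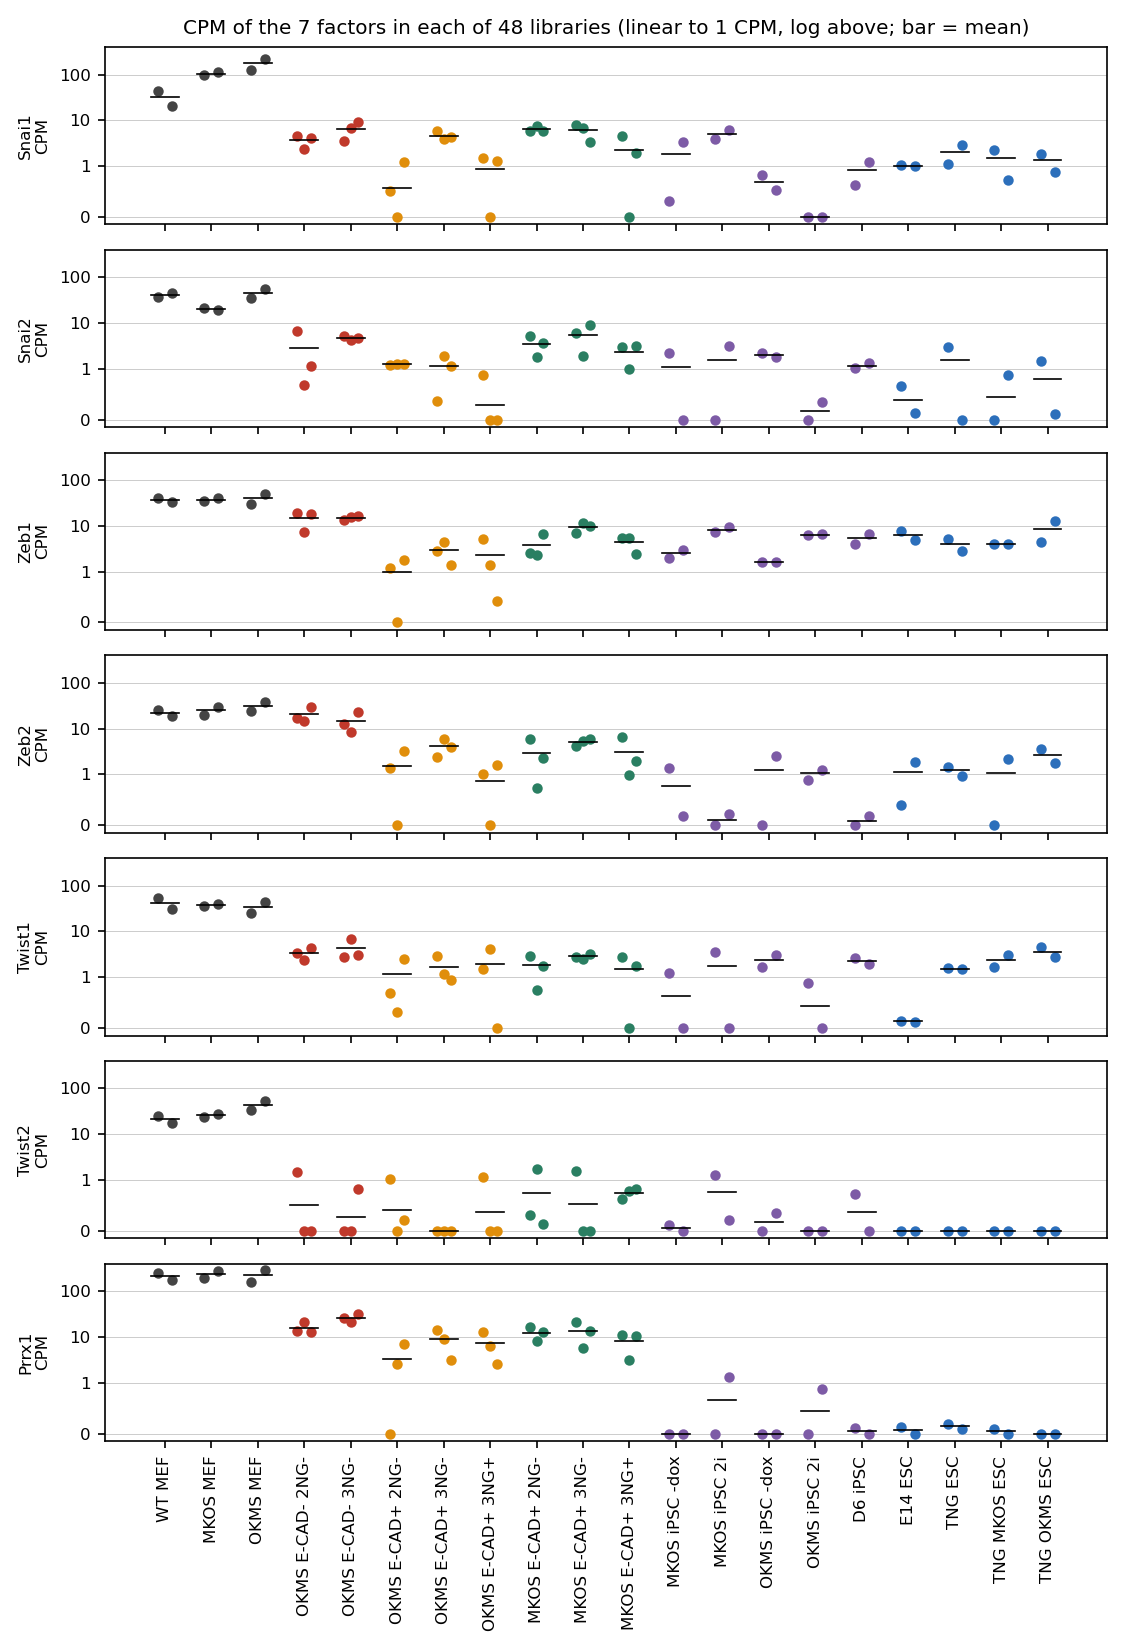
CPM of each of the 7 factors (y axis, linear to 1 CPM and logarithmic above) in every library (points) of the 20 conditions (x axis), with horizontal bars for condition means. The 3 MEF conditions are the highest for each factor, and OKMS E-CAD- libraries lie above OKMS E-CAD+ 2NG- and 3NG- libraries without overlap for Zeb1 and Zeb2.

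The end points of the process set the range of each factor. All 7 factors were lower in ESCs (8 libraries) than in MEFs (6 libraries) (edgeR adjusted p of 6.95e-08 or less). In the same comparison 30.4% of genes tested were called lower. The decrease was not uniform: Zeb1 was 6.78-fold lower, Zeb2 18.6-fold, Twist1 31.7-fold, Snai2 51.7-fold and Snai1 55.8-fold. The Snai2 difference (log2 -5.69) was -7.31 without TNG ESC replicate 1, -6.82 without TNG MKOS ESC replicate 2 and -6.30 without TNG OKMS ESC replicate 1, and that of Zeb2 (log2 -4.22) was -5.67 without TNG MKOS ESC replicate 2.

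Prrx1 and Twist2 were close to absent from ESCs. Prrx1 had 5 reads in the 8 ESC libraries together, so that its MEF level was 3133-fold higher, with a counting interval of 1343 to 9649. Twist2 had no read in any ESC library, so that its MEF level was at least 702-fold higher, taking 3 reads over the group as the floor. Intervals and floors cover counting error only.

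Zeb1 was at 2.88 to 12.5 CPM in ESCs and 1.60 to 9.24 CPM in iPSCs, with reads in each of these 18 libraries. In OKMS iPSCs without doxycycline Zeb1 kept 4.03% of its OKMS MEF level, less than Twist1 (6.78%) and Snai2 (4.47%). Its mean share was the largest of the 7 factors in OKMS iPSCs in 2i (15.9%, next Zeb2 with 3.33%). The same held for MKOS iPSCs without doxycycline (6.67%, next Snai2 with 5.29%) and in 2i (22.2%, next Snai2 with 7.48%). Zeb2 was at 0 in 1 of 8 ESC and 3 of 10 iPSC libraries. Zeb1 reads per Zeb2 read, pooled over libraries, were 1.48 in MEFs (exact interval 1.38 to 1.59), 4.08 in ESCs (3.26 to 5.16) and 7.37 in iPSCs (5.35 to 10.4). The pooled values hide a wide spread. Single libraries with Zeb2 reads ran from 1.23 to 1.72 in MEFs, 1.29 to 19.7 in ESCs and 0.643 to 42 in iPSCs. Zeb1 reads outnumbered Zeb2 reads in 9 of 10 iPSC libraries. OKMS iPSCs without doxycycline had 8 and 9 Zeb1 reads against 0 and 14 Zeb2 reads, so the pooled iPSC value does not describe them.

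Within iPSCs, Zeb1 was at 7.35 and 9.24 CPM for MKOS and 6.34 and 6.5 CPM for OKMS in 2i, against 1.97 and 3.02 CPM for MKOS and 1.65 and 1.60 CPM for OKMS without doxycycline. The 4 libraries in 2i were above all 4 kept without doxycycline, a difference for which no test was set. Between iPSCs without doxycycline and the TNG MKOS and OKMS ESCs no member was called, where 1.40% of genes were. Zeb1 in these ESCs was at 3.91 and 3.93 CPM for TNG MKOS and 4.53 and 12.5 CPM for TNG OKMS, so that 1 library weighed most in its difference from the iPSCs (edgeR adjusted p = 0.189), and no fold is given for Prrx1 or Twist2, which were near 0 in both.

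Of 19 genes encoding partners, corepressors and inhibitors, 8 were higher and 10 lower in ESCs, where 29.6% of all genes tested were called higher and 30.4% lower. Tcf12, an E protein, was 7.88-fold lower and Id3, an inhibitor of E proteins, 23.3-fold lower. Ctbp2, a corepressor that Zeb proteins recruit, was 6.54-fold higher, and so was the Snail-binding protein Ajuba (listed as Jub), 5.37-fold. All 24 genes of a mesenchymal list were lower, and 22 of 26 epithelial genes were higher, the keratins Krt18 and Krt19 being lower.

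Of 12 TGF-beta pathway genes, a pathway known to induce Snail and Zeb genes, 8 were lower and 1 higher in ESCs. The median log2 difference was -5.69 for the 7 factors, -7.72 for the mesenchymal list and 0 for all genes tested.

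In E-CAD- cells of OKMS reprogramming 5 of the 7 factors were far below OKMS MEFs, whereas Zeb1 and Zeb2 were closer to them. In the 2NG- gate, Snai1 was 46.5-fold lower than in OKMS MEFs (log2 -5.54 ± 0.72), Snai2 14.9-fold, Twist1 10.0-fold, Twist2 77.3-fold and Prrx1 14.5-fold (edgeR adjusted p of 0.00835 or less). Zeb1 was 2.73-fold lower (log2 -1.45 ± 0.61, edgeR adjusted p = 0.085) and Zeb2 1.58-fold lower (log2 -0.66 ± 0.89, edgeR adjusted p = 0.662), neither of which passed, although Zeb1 did when the 5 libraries were compared alone (log2 -1.39 ± 0.42, edgeR adjusted p = 0.0271). In this comparison 10.1% of genes were called lower. The call for Twist1 was lost without OKMS MEF replicate 2 (edgeR adjusted p = 0.0611). Without OKMS E-CAD- 2NG- replicate 1 the log2 difference was -5.61 in place of -3.90 for Snai2. The value for Twist2 rests on 8 reads in that same library, the other 2 having none.

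Zeb2 in the 3 E-CAD- 2NG- libraries was at 17.3, 14.8 and 29.3 CPM, and in the 3 E-CAD- 3NG- libraries at 12.9, 8.37 and 22.6 CPM. The OKMS MEFs had 24.7 and 38.7 CPM of Zeb2, so that the highest E-CAD- library lay between the 2 MEF libraries. Zeb1 was at 18.8, 7.21 and 18.3 CPM in E-CAD- 2NG- and 13.4, 15.3 and 16.1 CPM in E-CAD- 3NG- libraries. All were below the 30.3 and 50.5 CPM of Zeb1 in OKMS MEFs.

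Snai1 in the E-CAD- libraries had already fallen to between 2.40 and 9.26 CPM, from 128 and 223 CPM in OKMS MEFs. Averaged over the 6 E-CAD- libraries, Snai1 was at 2.89% of its OKMS MEF level and Twist2 at 0.88%. Snai2 was at 8.31%, Prrx1 at 9.33% and Twist1 at 11.1%. Zeb1 and Zeb2 stood apart with 36.8% and 55.3%.

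In 6 of 6 E-CAD- libraries, both Zeb1 and Zeb2 kept a larger share of their MEF level than each of the other 5 members. The 24 mesenchymal genes kept a median of 21.1% and the 8 fibroblast marker genes a median of 20.7%, with a highest value of 112% for Lum, a matrix proteoglycan, and a lowest of 6.72% for Thy1. The median of the 7 factors was 9.33%, and that of all 6899 transcripts with at least 10 CPM in MEFs was 88.3%.

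**Figure D2:**
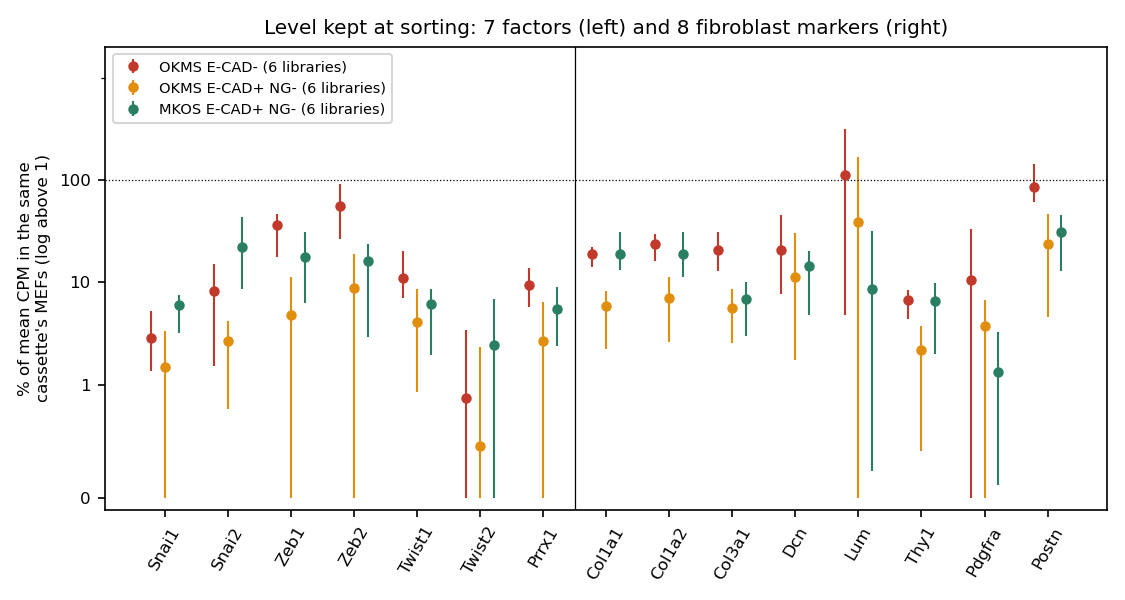
Share of the mean CPM in the same cassette's MEFs (y axis, percent, linear to 1 and logarithmic above) kept by the 7 factors and 8 fibroblast markers (x axis); points are means and lines the range over 6 libraries of OKMS E-CAD-, OKMS E-CAD+ 2NG- and 3NG-, or MKOS E-CAD+ 2NG- and 3NG- cells. Zeb1 and Zeb2 keep 36.8% and 55.3% in E-CAD- cells, against 0.88% to 11.1% for the other factors.

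E-CAD+ cells of OKMS reprogramming had less Zeb1, Zeb2 and Prrx1 than E-CAD- cells. Over both gates Zeb1 was 7.28-fold lower in E-CAD+ cells (log2 -2.86 ± 0.45, edgeR adjusted p = 1.75e-05), Zeb2 5.85-fold lower (log2 -2.55 ± 0.62, edgeR adjusted p = 0.00642) and Prrx1 3.18-fold lower (log2 -1.67 ± 0.45, edgeR adjusted p = 0.015). The other 4 factors did not pass, although Snai1 did without the low-count filter (log2 -1.24, edgeR adjusted p = 0.0154). Of all genes tested 2.39% were called lower and 4.69% higher.

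Zeb1 in E-CAD+ 2NG- libraries was at 1.19, 0 and 1.76 CPM, and in E-CAD+ 3NG- libraries at 2.86, 4.52 and 1.41 CPM. The highest E-CAD+ library was below the lowest E-CAD- library (7.21 CPM), so that the groups did not overlap for Zeb1. Zeb2 was at 1.36, 0 and 3.17 CPM in E-CAD+ 2NG- and 2.41, 5.95 and 4.0 CPM in E-CAD+ 3NG- libraries. These too were all below the lowest E-CAD- library (8.37 CPM).

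Prrx1 was at 13.7, 20.9 and 13.0 CPM in E-CAD- 2NG- and 25.6, 21.6 and 31.6 CPM in E-CAD- 3NG- libraries. In E-CAD+ cells it was at 0, 2.58 and 7.20 CPM (2NG-) and 14.5, 9.05 and 3.06 CPM (3NG-). Its groups overlapped, since 1 E-CAD+ 3NG- library exceeded 2 E-CAD- 2NG- libraries. The call for Prrx1 was lost without OKMS E-CAD+ 3NG- replicate 3 (edgeR adjusted p = 0.0502) or with the 12 libraries compared alone (0.0689). Without OKMS E-CAD+ 2NG- replicate 3 its log2 difference was -2.65 in both gates and, in the 2NG- gate alone, -3.86 (edgeR adjusted p = 0.00981) in place of -1.91 (edgeR adjusted p = 0.122).

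Snai1 was low in both sorts. It was at 0.51, 0 and 1.20 CPM in E-CAD+ 2NG- libraries, below every E-CAD- library, but at 5.80, 3.81 and 4.24 CPM in E-CAD+ 3NG- libraries, within the E-CAD- range. Over both gates the log2 difference of Snai1 was -1.23 ± 0.49 (edgeR adjusted p = 0.121).

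Snai2 was at 0.69 to 6.83 CPM in E-CAD- libraries and 0.36 to 1.90 CPM in E-CAD+ libraries (log2 -1.57 ± 0.76, edgeR adjusted p = 0.218). Twist1 was at 2.40 to 6.97 CPM against 0.32 to 2.94 CPM (log2 -1.16 ± 0.64, edgeR adjusted p = 0.294). Both overlapped between the groups, and Twist2 had reads in only 2 of 6 E-CAD- libraries and 2 of 6 E-CAD+ libraries, so that its difference was not detectable at this depth.

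An exact permutation test of log2(CPM + 1), two-sided and within gates, gave p = 0.005 for Zeb1, Zeb2 and Prrx1, which is the smallest value its 400 arrangements allow. The exact permutation p was 0.025 for Snai1 and Twist1, 0.05 for Snai2 and 0.7 for Twist2 before any adjustment. In the edgeR fit the log2 differences of the 6 factors other than Twist2 ran from -2.86 to -1.16, beside a median of 0.01 over all genes. That of Twist2 could not be estimated, since E-CAD+ 3NG- cells had no Twist2 read.

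Cells had been sorted on E-CAD, and Cdh1 differed accordingly: 4.24 to 51.5 CPM in E-CAD- libraries against 137 to 182 CPM in E-CAD+ libraries and at most 0.69 CPM in MEFs. E-CAD- cells thus had Cdh1 mRNA above the MEF level, together with Zeb1 and Zeb2. The library with the most Cdh1 among them, E-CAD- 2NG- replicate 2 (51.5 CPM), had the least Zeb1 (7.21 CPM), though not the least Zeb2 (14.8 CPM). Across the 20 condition averages Pearson's r with Cdh1 was -0.871 for Zeb1 and -0.87 for Zeb2, and across the 17 without MEFs -0.606 and -0.737. With MEFs it was -0.931 for Twist1, -0.906 for Twist2, -0.902 for Snai2, -0.86 for Snai1 and -0.851 for Prrx1. Without MEFs it was -0.533 for Twist1, -0.456 for Prrx1, -0.449 for Snai2, -0.286 for Snai1 and -0.063 for Twist2.

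**Figure D3:**
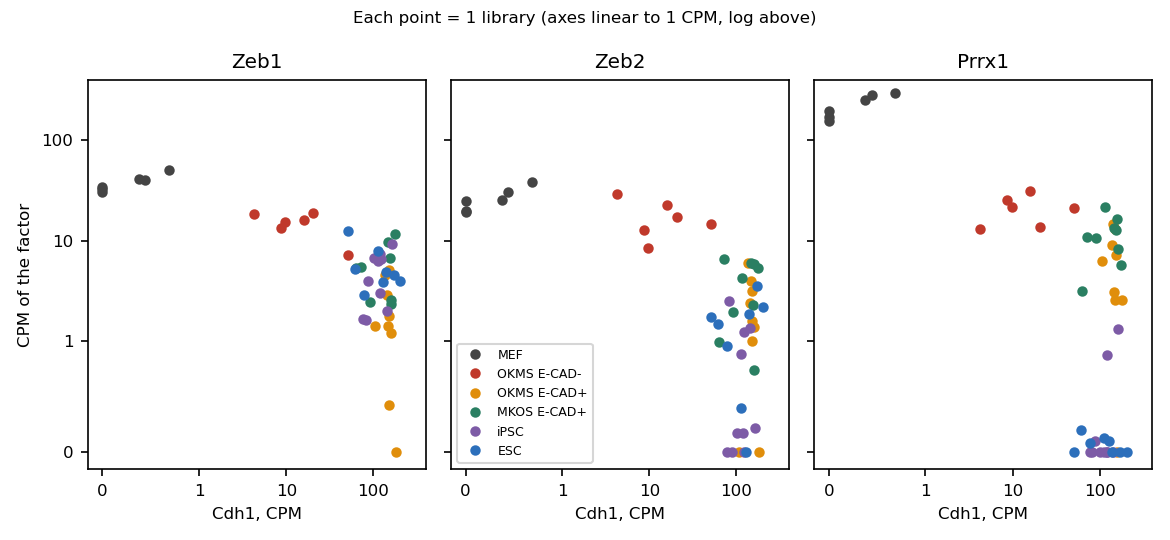
CPM of Zeb1, Zeb2 and Prrx1 (y axis) against CPM of Cdh1 (x axis), 1 point per library for 48 libraries, both axes linear to 1 CPM and logarithmic above. The 6 OKMS E-CAD- libraries lie between MEFs, with Cdh1 at most 0.69 CPM, and most E-CAD+ and pluripotent libraries, whose lowest Cdh1 value is 50.8 CPM.

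Within the 2NG- gate alone, Zeb1 was 11.2-fold lower in E-CAD+ cells (log2 -3.48 ± 0.65, edgeR adjusted p = 0.00103) and Zeb2 10.3-fold lower (log2 -3.36 ± 0.91, edgeR adjusted p = 0.0321), where 0.691% of genes were called lower. The Zeb2 call was lost without E-CAD+ replicate 1 (edgeR adjusted p = 0.135) or 2 (0.158), or E-CAD- replicate 1 (0.0557) or 3 (0.122). Both calls were lost with the 6 libraries compared alone (edgeR adjusted p = 0.0642 for Zeb1 and 0.0607 for Zeb2). Without E-CAD+ replicate 3 the log2 differences were -4.23 for Zeb1 and -4.52 for Zeb2. In the 3NG- gate Zeb1 was 4.73-fold lower (log2 -2.24 ± 0.61, edgeR adjusted p = 0.0423), where 0.166% of genes were called lower. That call was lost without E-CAD+ replicate 1 (edgeR adjusted p = 0.142) or 3 (0.271), or E-CAD- replicate 1 (0.0774), 2 (0.104) or 3 (0.11), and with the 6 libraries compared alone (0.0977).

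The E-CAD difference was not shown to depend on the gate for any member. No member was called in the test of the difference between gates (edgeR adjusted p = 1 for all 7), where 0.0128% of genes were called and 744 had an unadjusted p under 0.05.

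Of 26 epithelial genes, among them the sorted gene Cdh1, 24 were higher in E-CAD+ cells, with a median log2 difference of 3.12, and none was lower. The shares over all genes tested were 4.69% higher and 2.39% lower. Epcam rose 8.13-fold (log2 3.02 ± 0.32), Krt18 8.4-fold and Cldn6 16.8-fold. The epithelial promoters printed above were chosen by this same comparison, so their rise was fixed by the choice. Of 24 mesenchymal genes 15 were lower and none higher (median -1.49), among them Vim, an intermediate filament (4.04-fold lower), and the collagens Col3a1 and Col1a2 (3.37-fold and 3.16-fold lower).

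Of the 19 partners and cofactors, 4 were lower in E-CAD+ cells and none higher, where 2.39% of all genes tested were called lower and 4.69% higher. Tcf4 and Tcf12, E proteins with which Twist proteins dimerise, were 1.92-fold and 1.8-fold lower, Ctbp1, the corepressor of Zeb proteins, 1.61-fold lower, and Id2, an inhibitor of E proteins, 2.33-fold lower. Tcf12 was at 89.2 to 146 CPM in E-CAD- libraries, above the 37.6 to 83.0 CPM of MEFs, and at 27.3 to 81.2 CPM in E-CAD+ libraries. Against OKMS MEFs, E-CAD- 2NG- cells had none of the 19 partners called higher, Tcf12 included, and 4 called lower. In that comparison 1832 of all 15630 genes tested were called higher and 1582 (10.1%) lower. Kdm1a and Hdac1, corepressor enzymes that Snai1 recruits, did not pass.

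Of the 12 TGF-beta pathway genes 1 passed, where 2.39% of all genes tested were called lower: the ligand gene Tgfb3 was 4.8-fold lower in E-CAD+ cells. The median log2 difference was -0.31 for the partners and -0.36 for the TGF-beta list.

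**Figure D4:**
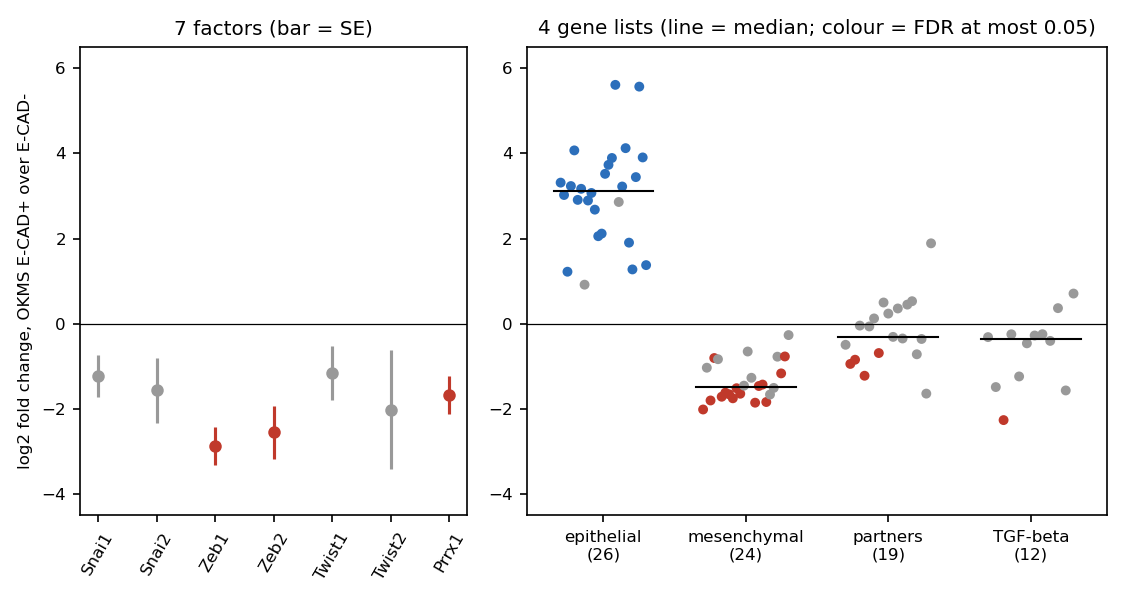
Log2 fold change of OKMS E-CAD+ over E-CAD- cells, both gates (y axis), for the 7 factors (left, bars are SE) and the genes of 4 lists (right, horizontal lines are medians); coloured points had an adjusted p of at most 0.05, blue higher and red lower. Zeb1, Zeb2 and Prrx1 pass among the factors, the Twist2 point rests on a group without reads, while 24 of 26 epithelial genes lie higher.

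Markers of fibroblasts and of other cells moved with the E-CAD sort. All 8 fibroblast markers had reads, and their summed CPM was 506 to 933 in E-CAD- libraries, with Col1a2 or Col3a1 the most abundant, and 75.0 to 282 in E-CAD+ libraries. Per 1000 CPM of these markers, Zeb1 was at 13.0 to 32.4 in E-CAD- and 0 to 16.1 in E-CAD+ libraries, and Zeb2 at 16.6 to 41.2 and 0 to 24.6. On that scale the groups overlapped for both, a calculation chosen after the data had been seen.

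Summed neural and neural crest markers (4 genes, mostly Tubb3) were at 33.5 to 470 CPM in E-CAD- and 3.41 to 15.3 CPM in E-CAD+ libraries. Summed myeloid markers (5 genes, mostly Lyz2) were at 56.4 to 881 CPM in E-CAD- and 23.3 to 359 CPM in E-CAD+ libraries. In each E-CAD- gate replicate 3 had the highest Zeb2 (29.3 CPM in 2NG- and 22.6 CPM in 3NG-), together with the highest fibroblast sum (713 and 933 CPM), the highest neural sum (470 and 73.5 CPM) and the lowest myeloid sum (127 and 56.4 CPM). Replicate 3 had the lowest myeloid sum in all 8 sorted conditions. Summed pluripotency markers (8 genes, mostly Dppa5a) were at 190 to 329 CPM in E-CAD- and 850 to 5635 CPM in E-CAD+ libraries. Summed endothelial markers (5 genes) were at 10.6 to 27.9 CPM in E-CAD- and 5.22 to 20.6 CPM in E-CAD+ libraries, against 1.28 to 5.15 CPM in MEFs. Most of the sum was Tek, a receptor of endothelial cells, at a mean of 11.6 CPM in E-CAD- 2NG- and 21.1 CPM in E-CAD- 3NG- cells, while Pecam1 was at 0 there. Summed muscle markers (4 genes, mostly Myog or Des) did not exceed 8.24 CPM in E-CAD- cells, with Myf5 at 0. Summed keratinocyte markers were at 0 to 1.09 CPM in E-CAD- and 0.235 to 23.6 CPM in E-CAD+ libraries, with Krt5 or Krt14 their most abundant gene in E-CAD- cells. Both sorts were of CD44low cells, and the part of fibroblast, neural, myeloid and endothelial RNA in the Zeb1, Zeb2 and Prrx1 differences was not tested.

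E-CAD+ 2NG- cells were compared with the MEFs of their own cassette. For OKMS all 7 factors were lower than in OKMS MEFs, where 13.5% of genes were called lower. Snai1 was 204-fold lower (log2 -7.67 ± 0.81), Prrx1 54.4-fold, Zeb1 30.5-fold and Zeb2 16.2-fold. These sizes depended on replicate 3, without which the log2 differences were -8.90 for Snai1, -7.72 for Prrx1 (in place of -5.76), -5.68 for Zeb1 (in place of -4.93) and -5.18 for Zeb2 (in place of -4.02). For MKOS 6 factors were lower than in MKOS MEFs, where 12.0% of genes were called lower.

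In MKOS E-CAD+ 2NG- cells, Twist1 was 20.5-fold lower than in MKOS MEFs, Prrx1 19.3-fold, Snai1 16.5-fold, Zeb1 9.79-fold and Zeb2 8.38-fold. Twist2 was lower as well (log2 -5.17 ± 1.40), though not by DESeq2 (adjusted p = 0.0882). Snai2 did not pass (log2 -2.56 ± 1.05, edgeR adjusted p = 0.0644), and its MKOS MEF level was the lowest of the 3 MEFs. Snai2 did pass with DESeq2 size factors (edgeR adjusted p = 0.0484), without the low-count filter (0.00434) and with the 5 libraries compared alone (0.00362). The Zeb2 call was lost without MKOS E-CAD+ 2NG- replicate 2 (edgeR adjusted p = 0.0641) or MKOS MEF replicate 2 (0.0559). The log2 difference was -4.05 for Zeb2 without MKOS E-CAD+ 2NG- replicate 1 (in place of -3.07), -6.73 for Twist2 without replicate 2 and -3.95 for Zeb1 without replicate 3 (in place of -3.29).

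Between the cassettes, E-CAD+ Nanog-GFP- cells of MKOS had more Snai1 and Zeb1 than those of OKMS. Over both gates Snai1 was 3.05-fold higher (log2 1.61 ± 0.47, edgeR adjusted p = 0.0194) and Zeb1 2.99-fold higher (log2 1.58 ± 0.44, edgeR adjusted p = 0.013), where 11.9% of genes were called in either direction. The Snai1 call was lost without MKOS 3NG- replicate 1 (edgeR adjusted p = 0.0532) or OKMS 2NG- replicate 1 (0.0502), and the Zeb1 call without MKOS 2NG- replicate 3 (0.0674), without the 7 sorted libraries that the study's averages omit (0.103), or with the compared libraries alone (0.0732). Without OKMS 2NG- replicate 3 the Snai1 difference was 2.22.

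Markers of fibroblasts and other cells moved with the cassette as well. The summed fibroblast markers were at 427 to 965 CPM in MKOS and 75.0 to 282 CPM in OKMS E-CAD+ Nanog-GFP- libraries, and the summed neural markers at 22.6 to 169 CPM and 3.41 to 15.3 CPM, both without overlap. The myeloid sum was at 149 to 1790 CPM in MKOS and 23.3 to 359 CPM in OKMS, and the keratinocyte sum (mostly Krt14) at 6.10 to 160 CPM and 0.235 to 23.6 CPM, with overlap. The endothelial sum was not higher in MKOS, at 3.39 to 13.5 CPM against 5.22 to 20.6 CPM. The pluripotency sum was at 8285 to 10432 CPM in MKOS and 1668 to 5635 CPM in OKMS 3NG- libraries, without overlap. In 2NG- libraries it was at 3025 to 4071 CPM and 850 to 3316 CPM, with overlap. The libraries came from cells sorted as E-CAD+ and CD44low. The part of fibroblast, neural, myeloid and keratinocyte RNA in the Snai1 and Zeb1 differences was not tested.

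Snai1 in MKOS was at 5.92, 7.68 and 5.83 CPM (2NG-) and 7.93, 6.92 and 3.31 CPM (3NG-). All 3 MKOS 2NG- libraries exceeded the OKMS E-CAD+ 2NG- libraries (0 to 1.20 CPM), while the 3NG- libraries of both cassettes overlapped. Zeb1 in MKOS was at 2.55, 2.36 and 6.78 CPM (2NG-) and 6.92, 11.6 and 9.71 CPM (3NG-). Its MKOS libraries were above the OKMS libraries of the same gate in both gates.

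Zeb2 did not differ detectably between the cassettes (log2 0.45 ± 0.60, edgeR adjusted p = 0.719), nor did Twist1 (0.46 ± 0.63, 0.724). Prrx1 (log2 1.06 ± 0.44, edgeR adjusted p = 0.111) and Snai2 (1.83 ± 0.74, 0.101) had positive differences that did not pass, Prrx1 doing so without OKMS 2NG- replicate 3 (log2 2.03, edgeR adjusted p = 0.00877) or without the 7 sorted libraries (log2 1.85, edgeR adjusted p = 0.0306). The Zeb1 reads per Zeb2 read were 1.54 in MKOS (exact interval 1.28 to 1.84) and 0.73 in OKMS E-CAD+ cells (0.549 to 0.967), against 0.834 in OKMS E-CAD- cells (0.73 to 0.951). These intervals cover counting error in pooled reads and not the spread between libraries. Single libraries with Zeb2 reads ran from 0.439 to 3.2 for MKOS, 0.353 to 1.19 for OKMS E-CAD+ and 0.488 to 1.83 for OKMS E-CAD-, with overlap. In single libraries Zeb1 reads outnumbered Zeb2 reads in 5 of 6 for MKOS, 1 of 6 for OKMS E-CAD+ and 3 of 6 for OKMS E-CAD-.

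Other mesenchymal genes were also higher in MKOS E-CAD+ cells, 15 of 24 with none lower (median log2 1.36), among them Col5a2 (4.53-fold) and Col1a2 (3.82-fold). Of all 15630 genes tested, 1045 were called higher and 813 lower in MKOS. Of the epithelial genes 6 of 26 were lower, Rab25 (a vesicle GTPase of epithelia) by 6.13-fold and Cldn6 by 3.88-fold. Of the partners Tcf12 was 2.68-fold lower. Of the 12 genes of the TGF-beta list 3 were higher and 9 were not called (median log2 0.14). The target gene Smad7 (3.27-fold) and the ligand gene Tgfb3 (4.72-fold) were among those higher.

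As shares of the MEF level, MKOS E-CAD+ Nanog-GFP- cells kept 22.2% of Snai2, 17.8% of Zeb1, 16.2% of Zeb2, 6.22% of Twist1, 6.0% of Snai1, 5.44% of Prrx1 and 2.45% of Twist2. OKMS E-CAD+ cells kept 8.89% of Zeb2, 4.85% of Zeb1, 4.13% of Twist1, 2.69% of Prrx1, 2.64% of Snai2, 1.48% of Snai1 and 0.465% of Twist2. The change from each cassette's MEFs to the average of its E-CAD+ 2NG- and 3NG- cells was tested for a difference between cassettes. No member was called, where 1.43% of genes were called. Snai1 was nearest (log2 -2.28 ± 0.84, edgeR adjusted p = 0.19, and 0.0385 with the compared libraries alone).

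Between 3NG- and 3NG+ cells 0 of 7 members were called for MKOS, where 1.58% of genes were called, and 0 of 7 for OKMS, where 6.26% were. Before adjustment Snai1 was under 0.05 for MKOS (log2 -1.35 ± 0.65, edgeR adjusted p = 0.296) and for OKMS (log2 -1.72 ± 0.73, edgeR adjusted p = 0.152), and DESeq2 called none. Twist2 was also under 0.05 for OKMS, where it had 9 reads in 1 of the 3NG+ libraries and none in the other 5, so that nothing can be read from it. Without the low-count filter Snai1 was called for OKMS (log2 -1.72, edgeR adjusted p = 0.031). No member was called for a difference between cassettes in this change, where 0.0256% of genes were called.

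Prrx1 persisted in 3NG+ cells, at 10.9, 3.16 and 10.6 CPM for MKOS and 13.0, 6.29 and 2.58 CPM for OKMS. It was at 0 to 1.32 CPM in all 18 iPSC and ESC libraries, below each 3NG+ library. Zeb1 in 3NG+ cells was at 5.47, 5.33 and 2.47 CPM (MKOS) and 5.04, 1.40 and 0.43 CPM (OKMS), which overlapped the iPSCs and ESCs. The summed fibroblast markers moved with Prrx1, at 97.2 to 579 CPM in 3NG+ libraries and 3.05 to 25.8 CPM in iPSC and ESC libraries, as did the summed myeloid markers, at 39 to 844 CPM and 3.63 to 23.8 CPM. The 3NG+ cells had been sorted as E-CAD+ and CD44low, and the part of fibroblast and myeloid RNA in their Prrx1 level was not tested.

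The genes whose condition averages were most alike to each factor differed between factors. Over the 20 averages of log2(CPM + 1), Prrx1 was most alike to Cdh11 (Pearson's r = 0.992), Col6a1 and Tnc, mesenchymal adhesion and matrix genes, and 131 genes exceeded an r of 0.95. Twist2 was most alike to Atoh8 (r = 0.982), Slc14a1 and Mir214, and Snai2 to Elk3 (r = 0.972), Arhgap31 and Prdx5. For Zeb1 no gene exceeded 0.95, and the most alike was Gas7 (r = 0.928), followed by Fn1 and Esyt1.

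Zeb2 was most alike to Tshz3 (r = 0.958), a gene whose symbol the table shows as a date, and Mfap2. Snai1 was most alike to Zfp703 (r = 0.959), Hic1 and Vcl, and Twist1 to Arhgef40 (r = 0.96) and Igsf10. Over the 17 conditions without MEFs, the r of these genes with their factor was 0.967 to 0.977 for Prrx1 and 0.906 to 0.919 for Zeb2, but 0.194 to 0.404 for Twist2. For the 21 genes the median r was 0.959 with MEFs and 0.807 without. By Spearman's rho 2 of the 21 were named again.

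Among the factors themselves the alikeness also fell without MEFs. Pearson's r between Zeb1 and Zeb2 was 0.815 over 20 conditions and 0.568 over 17 without MEFs, and between Zeb2 and Prrx1 0.905 and 0.783. Between Zeb1 and Twist2 it went from 0.783 to 0.083. Prrx1 followed the collagen gene Col1a2 (0.948, and 0.968 without MEFs) and, without MEFs, the myeloid gene Lyz2 (0.944, from 0.691 with MEFs), and Zeb2 and Snai2 did so less closely without MEFs (0.7 and 0.672 for Zeb2, 0.681 and 0.668 for Snai2). Outside MEFs Zeb1 had the lowest values of the 7 factors, 0.154 with Col1a2 and 0.054 with Lyz2. The averages share libraries and depth within a condition, so these values are descriptions.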

How the data were processed

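Levels of 7 transcription factors were taken from 1 table of read counts for 48 libraries. According to the labels and the study's methods, the authors made STRT (5′-end) libraries from total RNA of sorted or cultured cells and aligned the reads; the submitters' processing notes name Bowtie 0.12.7 and mm10, whereas the methods name mm9. The deposited values are raw read counts per feature, not normalized, for 24264 transcripts, 1554 repeat types and 104 spike-ins. The positions in the table fell inside the same-named GRCm38 gene for 99.3% of 20698 shared symbols, against 9.48% of 21500 for NCBIM37, so GRCm38 was used.

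CPM was computed over transcript rows. Genes passing edgeR's low-count filter (15630) were fitted with the quasi-likelihood test (edgeR 4.0.16, R 4.3.3, TMM scaling) in 1 model of the 20 conditions, with Benjamini-Hochberg adjustment over all genes tested and a threshold of 0.05. Samples were grouped by their labels. The scripts were tested on simulated data. Members, lists and comparisons were chosen with earlier results of these data known. Named genes were the members and, from each fixed list, up to 4 with the smallest adjusted p among those that passed and up to 2 of the most abundant that did not, any of the partners for their role and, for likeness, the 3 with the highest r. Repeats and spike-ins were left out, and some genes that this rule names are not reported here. Alternatives were DESeq2 1.42.0 size factors and Wald test, no low-count filter, the replicate number as a block, the compared libraries alone, each library left out, and the 7 sorted libraries that the study's averages omit left out. Depth, 1429717 to 14174725 transcript reads, puts a floor of 3 reads on what can be detected.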

Additional observations from a re-analysis of the deposited data

How the results depend on the processing

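Of 37 results (the members called in a comparison and all 7 between E-CAD+ and E-CAD- cells), none changed its direction or its side of the threshold with DESeq2 size factors or with the replicate block, and 1 (Twist2 in MKOS) lost its call with DESeq2's Wald test. Outside these 37, size factors added the call of Snai2 in MKOS against MEFs, as did no low-count filter and the compared libraries alone, making 7 members. Without the low-count filter 4 members were also called for E-CAD over both gates (Snai1 added), and 4 in the 2NG- gate (Snai1, Zeb1, Zeb2, Prrx1), 2 in the 3NG- gate (Zeb1, Prrx1), 4 between cassettes (Snai1, Snai2, Zeb1, Prrx1), and 1 each, Snai1, in Tg against WT MEFs, in the MEF-to-E-CAD+ change and in OKMS 3NG+ against 3NG- cells. With only the compared libraries fitted, 0 were called in either gate alone (Zeb1 in 2NG- edgeR adjusted p = 0.0642, in 3NG- 0.0977, Zeb2 in 2NG- 0.0607), 1 (Snai1, Zeb1 lost) between cassettes, 1 (Snai1) in the MEF-to-E-CAD+ change and 1 (Snai1) between Tg and WT MEFs, and over both gates Prrx1 was not (0.0689). Without the 7 sorted libraries, 0 were called in 3NG- (Zeb1 0.308), and the 2 in 2NG- were Zeb1 and Prrx1 (Zeb2 0.0535), and between cassettes Zeb1 was lost (0.103) and Prrx1 gained (0.0306). The exact permutation test gave 6 members with p of at most 0.05, unadjusted. The cause of these changes was not tested. With 1 library left out, members called ranged from 2 to 3 over both gates, 1 to 3 in 2NG-, 0 to 1 in 3NG-, 5 to 6 for MKOS against MEFs, 4 to 5 for OKMS E-CAD- against MEFs and 1 to 3 between cassettes, and stayed at 7 or 0 elsewhere. These refits kept the dispersion trend of all libraries. The fitted Twist2 difference over both gates, -2.69 to 0.439, was not estimable: at 0.439, without OKMS E-CAD- 2NG- replicate 1, its SE was 1054 and 2 of the 4 groups had no read, so its sign is arbitrary and no reversal was measured. Of the 21 genes most alike, Spearman's rho named 2 again and a pseudocount of 0.1 named 2.

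The labels do not say what a replicate number marks. Deviations of same-numbered sorted libraries had a mean correlation of 0.081 over 84 pairs (0.133 for replicate 3), with 23 over 0.1. Of the 24 sorted libraries, 21 were closest to their own number, and replicate 3 had the lowest myeloid sum in all 8 sorted conditions. Same-numbered libraries thus shared something that the labels do not name. The main fit left the number out because the methods name no replicate block. As a block the number left the members called at 3, 2 and 1 for E-CAD over both gates, in 2NG- and in 3NG-, and moved genes called in MKOS 3NG+ against 3NG- from 247 to 417. DESeq2 size factors shifted the median of all genes between ESCs and MEFs from 0 to -0.13. Genes called of all tested for E-CAD over both gates went from 1107 to 634 without the 7 libraries, in 2NG- from 372 to 843 without the filter and 176 with the compared libraries alone, and in 3NG- from 274 to 660 and 101. Members with under 10 CPM in sorted cells rest on few reads, which limits Snai2, Twist1 and Twist2 most.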
